A study of Danio rerio with 24 samples.

Results

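Among transcripts measured in jaws of zebrafish larvae exposed to dioxin, 80 array probe sets were lower in every exposed sample at 12 h. Their mean levels in exposed and control jaws lay within a set bound of each other 1, 2 and 4 h after the exposure began. These probe sets were chosen from their own values. Of 15502 probe sets that are not array controls, 8781 remained after those of cyp1a and sox9b and those with a mean log2 intensity under 4 were left out. Of these, 1968 had a mean TCDD minus vehicle difference within 0.2 of 0 on the log2 scale at 1, 2 and 4 h, and 139 of the 1968 also had all 3 TCDD arrays below all 3 vehicle arrays at 12 h. The 80 with the lowest 12 h difference are the members. The filter on low values is part of that rule, so all 80 passed it. Every difference at the 4 times was thus used to choose them, and it is described without a test.

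The samples were jaws of AB zebrafish larvae, dissected as the head in front of the pectoral fin with eyes and brain removed. TCDD larvae had spent 1 h, from 96 h post fertilization (hpf), in a bath of the dioxin TCDD at 1 ng/ml, and vehicle larvae in a bath of 0.1% dimethyl sulfoxide. Jaws were taken at 97, 98, 100 and 108 hpf, called 1, 2, 4 and 12 h here, and each of the 24 Affymetrix arrays held RNA pooled from 10 jaws, 3 TCDD and 3 vehicle arrays at each time. Values are probe set intensities (the brightness that summarises the probes of one transcript). A pool hides the spread between larvae, and 3 arrays per group limit the precision of every value. In such pooled tissue, fewer cells of a type and less RNA per cell cannot be told apart.

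TCDD binds the aryl hydrocarbon receptor, a transcription factor that moves to the nucleus, pairs with its partner ARNT and raises genes such as those of the cytochrome P450 1 family. Transcripts that differ many hours after such a pulse, and not at first, can include genes that the receptor does not bind itself. The larval jaw holds cartilage, the connective tissue around it, muscle, and a skin of surface and basal epidermal cells whose filaments are keratins and whose basal cells rest on a basement membrane. Jaw cartilage was well represented at 12 h: col2a1a, its main collagen, had a mean log2 intensity of 12.67 in TCDD jaws and 12.68 in vehicle jaws. This 1 gene does not stand for cartilage genes as a whole. Of a cartilage gene list described below, 22 of 26 probe sets had a 12 h difference below 0, against 64.2% of all probe sets.

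A gene was paired with 59 of the 80 members, each with a different gene, and 21 had none in the table used here. The 12 h differences lay between -1.87 and -0.32 on the log2 scale, with a median of -0.46, which is 1.38-fold lower in TCDD jaws. Over all 15502 probe sets the median was -0.03. Of the members, 2 were lower by at least 1, 30 by at least 0.5 and 49 by at least 0.4. The gap between the highest TCDD array and the lowest vehicle array at 12 h had a median of 0.11 and reached from 0.003 for bgnb (biglycan, a matrix proteoglycan) to 0.66 for kifc1. At the cut, the members at ranks 79 and 80 had differences of -0.32 and -0.32 (an unnamed probe set and mindy1, a deubiquitinase), and the first probe sets outside it had -0.32 (tsr2) and -0.31 (unnamed).

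**Figure D1:**
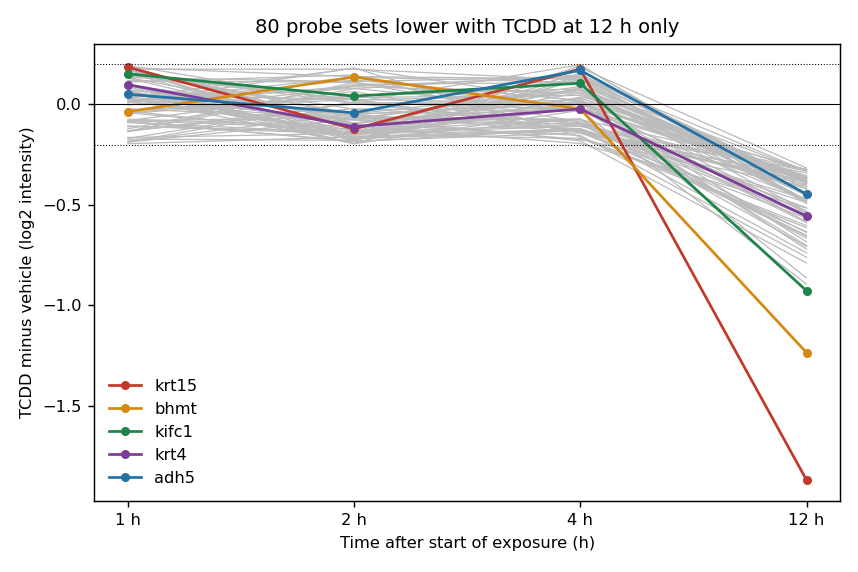
The TCDD minus vehicle difference in log2 intensity (vertical axis) at 1, 2, 4 and 12 h (horizontal axis, evenly spaced) is drawn as one line for each of the 80 members, 5 of them in colour. The dotted lines mark the bound of 0.2 that the members had to keep at the first 3 times, and at 12 h they lie between -1.87 and -0.32 because they were chosen so.

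At the 3 earlier times the members' median differences were 0.03, -0.07 and 0.00 at 1, 2 and 4 h, and no member passed the limma test (adjusted p between 0.652 and 1), as the bound on early differences favours. Of all probe sets, the calls with TCDD lower made up 0.0129%, 0.00645% and 0.142% at these times, and the calls with TCDD higher 0.103%, 0.0839% and 0.323%. Groups without overlap and with TCDD below were seen for 0, 3 and 0 members at 1, 2 and 4 h, against 4.99%, 6.82% and 2.53% of all probe sets. Those with TCDD above were seen for 1, 0 and 1 members, against 7.6%, 4.69% and 3.61%. The members at 1 h and 4 h were ctbp2a and adh5. A mean difference within 0.2 does not show equal levels. For some members this bound is smaller than the standard error of the limma fit, which was 0.39 for krt15.

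Keratin transcripts and factors of the epidermis held the largest difference. The first member by rank was krt15, a keratin gene. Its log2 intensities at 12 h were 6.61, 5.90 and 7.89 in TCDD jaws, against 9.03, 8.37 and 8.61 in vehicle jaws. All TCDD arrays lay below all vehicle arrays, as the rule required of every member, and replicate 2 was the lowest of both groups. The means were 6.80 ± 1.01 in TCDD jaws and 8.67 ± 0.34 in vehicle jaws (SD, n = 3 each), a difference of -1.87, 3.65-fold lower. It was -1.42 without TCDD replicate 2 and -2.41 without TCDD replicate 3. At 4 h the same probe set had 10.06, 9.25 and 10.80 in TCDD jaws, against 10.22, 9.97 and 9.40 in vehicle jaws, so the groups overlapped there.

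Another keratin gene, krt4, which marks the surface layer of larval skin, had 12.08, 11.88 and 12.49 in TCDD jaws, against 12.66, 12.93 and 12.53 in vehicle jaws at 12 h (difference -0.56). The groups were separated by only 0.041, between TCDD replicate 3 and vehicle replicate 3. At 2 h its 3 TCDD arrays, between 14.13 and 14.16, also lay below its 3 vehicle arrays, between 14.19 and 14.32, by less than the bound of the rule. The third keratin member, krt18b, had a difference of -0.39 that was -0.20 without vehicle replicate 1, its highest array at 8.61.

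The transcription factor gene tp63, needed to form and keep the basal epidermis, had 7.67, 7.54 and 6.65 in TCDD jaws, against 7.81, 8.05 and 7.86 in vehicle jaws. TCDD replicate 3 was far below the other 5 arrays, and the difference of -0.61 was -0.30 without it. For nipal4, whose human counterpart is mutated in a scaling skin disorder, the values were 4.06, 4.59 and 4.01 in TCDD jaws, against 5.16, 5.02 and 4.69 in vehicle jaws. All 3 TCDD arrays were lower, as the rule required, with a difference of -0.74.

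Enzymes were the next group. The second member by rank, bhmt, encodes the enzyme that turns homocysteine into methionine with betaine as methyl donor. It had 9.02, 9.85 and 8.26 in TCDD jaws, against 10.30, 10.34 and 10.19 in vehicle jaws, with means of 9.04 ± 0.80 and 10.28 ± 0.08 (SD, n = 3 each). The vehicle arrays were close together and the TCDD arrays spread over more than 1 log2 unit, and the difference of -1.24 (2.36-fold lower) was -0.84 without TCDD replicate 3. For adh5, which encodes an alcohol dehydrogenase that clears formaldehyde bound to glutathione, both groups were tight: 7.83, 7.72 and 7.96 in TCDD jaws, against 8.34, 8.32 and 8.19 in vehicle jaws (difference -0.45). For paics, an enzyme of purine synthesis, the values were 5.63, 5.10 and 5.41 in TCDD jaws, against 6.02, 6.23 and 5.70 in vehicle jaws (difference -0.60). The other enzymes were acsl1a (which activates fatty acids), with a difference of -0.49 that was -0.31 without TCDD replicate 3, and dbt (of branched-chain amino acid breakdown), with -0.36.

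**Figure D2:**
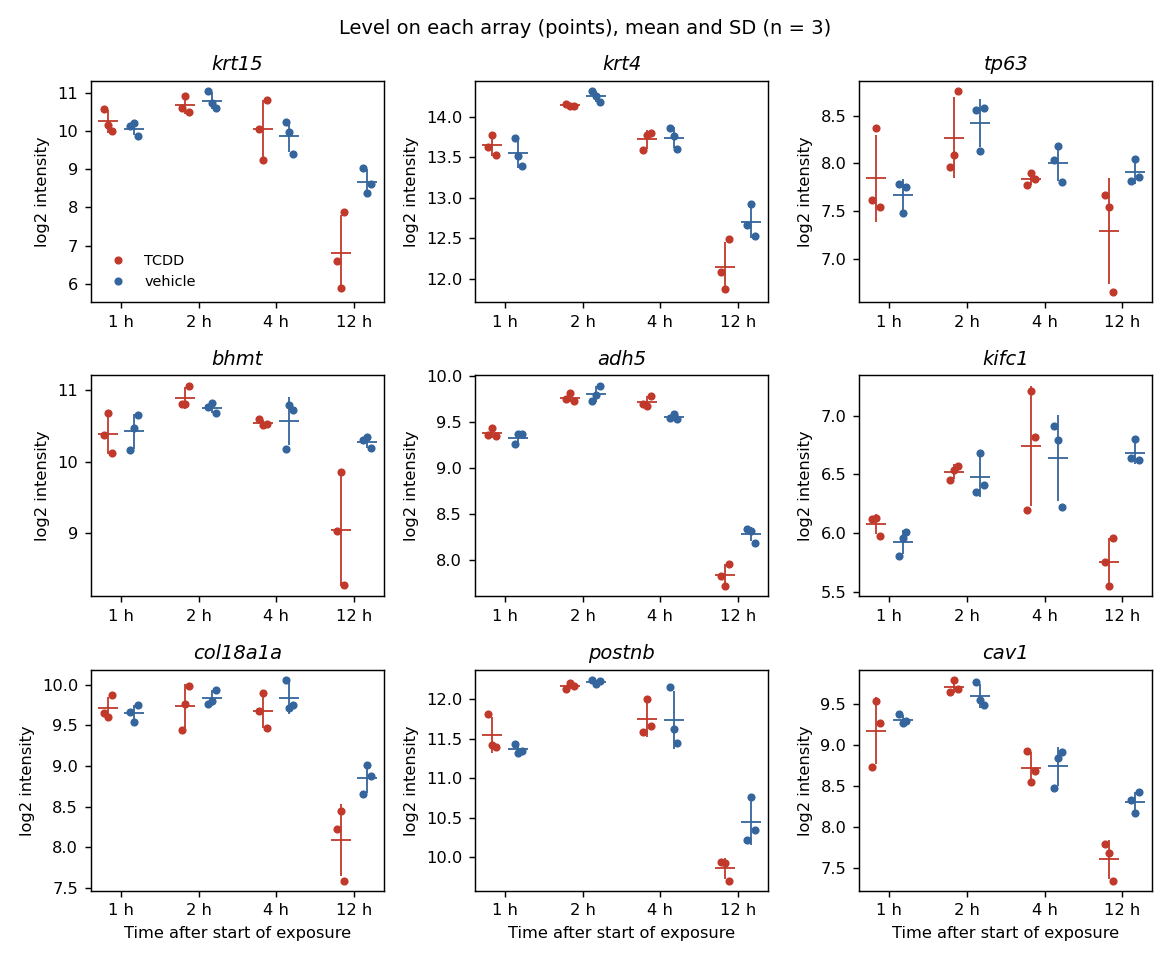
Each panel gives one member's log2 intensity (vertical axis) on every array at 1, 2, 4 and 12 h, with TCDD in red at the left and vehicle in blue at the right of each time; bars show the mean and SD of 3 arrays. The groups overlap at most earlier times and separate at 12 h, where the TCDD points of krt15, tp63 and bhmt are spread more widely than those of adh5 and kifc1. Each time has its own scale, so heights are compared within a time only.

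The widest gap of any member was that of a spindle gene. The third member, kifc1, encodes a minus-end kinesin that holds spindle poles together in dividing cells. It had 5.76, 5.55 and 5.96 in TCDD jaws, against 6.64, 6.80 and 6.62 in vehicle jaws at 12 h (means 5.76 ± 0.20 and 6.69 ± 0.10, SD, n = 3 each). Its difference of -0.93 (1.90-fold lower) lay between -1.03 and -0.83 without any single 12 h array. At 4 h its arrays were uneven, between 6.20 and 7.21 in TCDD jaws and between 6.22 and 6.91 in vehicle jaws. A kinetochore gene, nuf2, had a difference of -0.36 and a gap of 0.13, near the members' median of 0.11.

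Matrix and membrane genes formed a further set. The gene col18a1a, for the basement membrane collagen from which endostatin is cut, had 8.23, 8.45 and 7.59 in TCDD jaws, against 8.66, 9.01 and 8.88 in vehicle jaws (difference -0.76). For postnb, a periostin gene of connective tissue matrix, the values were 9.94, 9.92 and 9.70 in TCDD jaws, against 10.22, 10.76 and 10.34 in vehicle jaws (difference -0.58). All TCDD arrays of both genes were below all vehicle arrays, as the rule required. The laminin chain gene lamb1a, the secreted factor gene ndnf and the proteoglycan gene bgnb had differences between -0.39 and -0.37, that of ndnf being -0.24 without vehicle replicate 1. At 2 h the 3 TCDD arrays of ndnf were also below its vehicle arrays.

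The caveolin genes cav1 and cav2 were members. For cav1, which encodes the main coat protein of caveolae (small pits of the cell membrane), the values were 7.79, 7.68 and 7.34 in TCDD jaws, against 8.32, 8.17 and 8.42 in vehicle jaws (difference -0.70). For cav2, its partner protein, they were 5.23, 5.26 and 5.22 in TCDD jaws, against 5.45, 5.50 and 5.83 in vehicle jaws. The cav2 difference was -0.36, and -0.24 without vehicle replicate 3. On the RefSeq assembly GRCz12tu of zebrafish, cav1 and cav2 are next to each other, with 0 protein-coding genes between them. The members krt4 and krt18b have 1 between them, and the next closest pair, pnisr and pnrc2, has 9.

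Members tied to the actin cytoskeleton included rock2a, a kinase that drives actomyosin contraction, with 5.57, 5.33 and 5.07 in TCDD jaws, against 5.83, 5.99 and 6.27 in vehicle jaws (difference -0.71). For cdc42ep5, an effector of the GTPase Cdc42, the values were 7.87, 7.75 and 7.54 in TCDD jaws, against 8.18, 8.27 and 8.31 in vehicle jaws (difference -0.53). All 3 TCDD arrays of both genes were lower than all vehicle arrays, as the rule required. The cortactin-binding gene cttnbp2 had -0.63. For arhgap29a the values were 3.59, 3.81 and 3.44 in TCDD jaws, against 3.86, 4.65 and 3.88 in vehicle jaws. Its difference was -0.515, and -0.254 without vehicle replicate 2, the highest of its arrays. The actin-binding genes cap1 and flncb and the adhesion adaptor gene bcar1 had differences between -0.48 and -0.38.

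Transcription and chromatin genes made up 8 members. Among them were ctbp1 and ctbp2a, which encode C-terminal binding proteins, corepressors that recruit chromatin enzymes. For ctbp1 the values were 7.45, 7.04 and 7.17 in TCDD jaws, against 7.64, 8.11 and 7.83 in vehicle jaws (difference -0.64), and for ctbp2a they were 5.80, 5.86 and 5.71 in TCDD jaws, against 6.32, 6.28 and 6.19 in vehicle jaws (difference -0.47). The hedgehog pathway effector gene gli2a had 5.76, 5.71 and 5.38 in TCDD jaws, against 5.86, 6.43 and 6.32 in vehicle jaws (difference -0.59). All 3 TCDD arrays of gli2a were lower, as the rule required, TCDD replicate 1 by 0.10 from the nearest vehicle array. For brd2a, a reader of acetylated histones, the values were 5.38, 5.37 and 5.07 in TCDD jaws, against 5.74, 5.84 and 5.89 in vehicle jaws (difference -0.55). The others were nfia, lin54, pnrc2 and hdac4, with differences between -0.47 and -0.33; that of hdac4 was -0.22 without vehicle replicate 2. At 12 h hdac4 lay near the low end of the arrays, with log2 intensities of 2.42 ± 0.03 in TCDD jaws and 2.75 ± 0.24 in vehicle jaws (SD, n = 3 each), and it met the filter through its levels at 1, 2 and 4 h.

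Of the remaining named members among the first 20, tnfaip8l2b (whose mammalian counterpart restrains immune signalling) had 5.87, 5.79 and 5.68 in TCDD jaws, against 6.54, 6.05 and 6.80 in vehicle jaws. For zgc:76872 the difference was -0.90 and for si:dkey-199f5.8 it was -0.57, and no role is given for either. At 2 h, 3 members had all TCDD arrays below all vehicle arrays: krt4, ndnf and si:dkey-199f5.8. RNA-binding and splicing genes (u2af2b, rbm12bb, pnisr and qkia) lay between -0.39 and -0.36. Of these, pnisr had -0.155 and qkia -0.166 without TCDD replicate 2, and u2af2b had -0.182 without TCDD replicate 3. The groups of members by role were formed after their values were seen, from 39 of the 59 named members, and carry no test.

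Whether a member passed the limma test is a description too, since the rule used the same arrays. At 12 h, 57 of 15502 probe sets (0.368%) were called lower at a Benjamini-Hochberg adjusted p under 0.05, and 10 of the 80 members were among them. They were krt15, bhmt, kifc1, rock2a, paics, si:dkey-199f5.8, adh5 and 3 unnamed probe sets with differences between -0.86 and -0.65. The other 47 calls were outside the members, 45 of them with a difference of 0.2 or more at an earlier time and 2 with a mean under 4. With one 12 h array left out, the members called numbered 6, 6 and 5 (TCDD replicates 1, 2 and 3) or 5, 3 and 4 (vehicle replicates 1, 2 and 3). All 3 TCDD arrays lay below all 3 vehicle arrays at 12 h for 5.27% of all probe sets, and for 8.69% of the 8784 with a mean of at least 4. Members had this by choice.

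At 12 h the arrays were not alike in the signal that RNA quality or labelling leaves. The log2 signal at the 5′ end minus that at the 3′ end of the dap spike-in control (a Bacillus transcript) was -2.76, -3.12 and -0.28 on the TCDD arrays, against -2.53, -2.89 and -2.99 on the vehicle arrays. TCDD replicate 3 stood apart from the other 5 arrays of 12 h, as it did for the GAPDH control (-0.97, against values between -3.85 and -3.11). It was like the arrays of 1, 2 and 4 h, of which 17 of 18 had dap values between -1.57 and -0.07; the exception was TCDD replicate 2 at 1 h, with -3.27. At 12 h TCDD replicate 3 was the lowest TCDD array for 54 of the 80 members, and for 41.8% of all probe sets with a mean of at least 4. The members' median difference was -0.43 without it and -0.46 with it, and it was -0.42 with the dap signal as a covariate. Single members depended on it more: of the 19 whose difference moved by over 1.5 times when 1 of the 12 h arrays was left out, the array was TCDD replicate 3 for tp63, acsl1a, ppp2r5d, u2af2b, ywhaz, si:dkey-177p2.6 and 4 unnamed probe sets. Its part in their differences beyond these values was not tested.

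**Figure D3:**
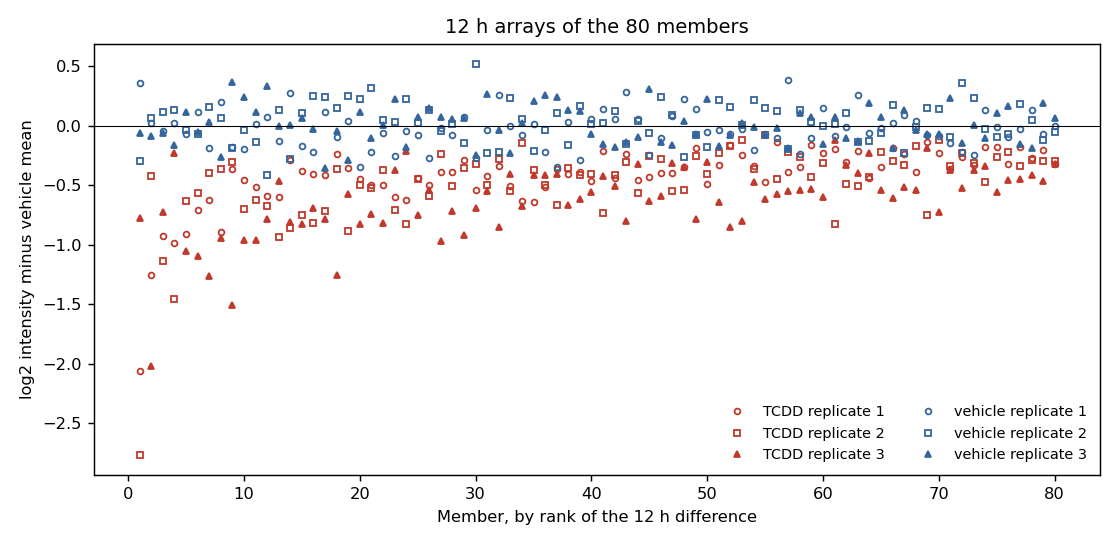
For each of the 80 members (horizontal axis, by rank of the 12 h difference), the log2 intensity of every 12 h array minus the mean of the vehicle arrays is plotted, TCDD in red and vehicle in blue, with a symbol for each replicate number. All red points of a member lie below its blue points by choice, and TCDD replicate 3, the filled red triangle, is the lowest TCDD point for 54 members.

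Because each time has its own scale, a member's place over time was followed as its percentile among the 15502 probe sets of the same array. The median percentile of the members was 77.7, 75.1, 77.0 and 77.5 in TCDD jaws at 1, 2, 4 and 12 h, and 78.7, 75.3, 77.0 and 82.7 in vehicle jaws. In vehicle jaws 59 of the 80 members stood at a higher percentile at 12 h than at 1 h. No share over all probe sets is set beside this count. The vehicle arrays of these 2 times also differed in the dap signal, between -2.99 and -2.53 at 12 h against between -1.11 and -0.83 at 1 h. The part of this signal in the percentiles was not tested. For kifc1 the mean percentile at 1, 2, 4 and 12 h was 66.6, 66.2, 72.9 and 75.3 in TCDD jaws and 65.7, 65.1, 71.8 and 85.2 in vehicle jaws, so its percentile was higher at 12 h than at 1 h in both groups, by more in vehicle jaws. For krt15 it was 97.6, 97.3, 96.5 and 84.7 in TCDD jaws and 97.3, 97.6, 96.3 and 96.3 in vehicle jaws, so only the TCDD level at 12 h left the narrow range. These percentiles are descriptions, and the vehicle 12 h arrays were themselves part of the choice, which favours high values there.

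Other probe sets annotated to the members' genes were not themselves chosen by the rule, and each carries a test. Their genes, though, were chosen through a member measured on the same arrays, and some can measure the same transcript as that member. A lean below 0 among them is therefore not independent of the choice. There were 25 of them for 17 genes, of which 16 for 12 genes had a mean of at least 4. Their median 12 h difference was -0.25 for these 16, 13 of them below 0, against a median of -0.01 and 51.6% below 0 for all probe sets of that level. Without TCDD replicate 3 the median of the 16 was -0.12, with 14 below 0. In the limma fit, 2 of the 25 fell, against 0.368% of all probe sets, and none rose (2 had an unadjusted p under 0.05 for a fall). The second postnb probe set had 6.99, 6.74 and 7.02 in TCDD jaws, against 8.09, 8.34 and 7.67 in vehicle jaws, and fell by 1.12 (SE 0.19, limma adjusted p = 0.00611). The second probe set of ppp2r5d, a regulatory subunit of protein phosphatase 2A, had 5.85, 5.37 and 5.30 in TCDD jaws, against 6.34, 6.05 and 6.52 in vehicle jaws, and fell by 0.80 (SE 0.16, limma adjusted p = 0.0166). In each, all TCDD arrays were below all vehicle arrays. Neither difference was seen at 12 h alone. At 2 h the postnb probe set had -0.62 and that of ppp2r5d had -0.36, both with all TCDD arrays below all vehicle arrays, and at 1 h that of ppp2r5d had 0.25 with all above, though none of these passed (limma adjusted p = 0.542, 0.904 and 0.635). Over 18 refits the adjusted p of the postnb probe set lay between 0.000361 and 0.247, and 3 ended the call; that of the ppp2r5d probe set lay between 0.00393 and 0.463, and 8 ended it. Those that ended the postnb call were the fit of the 6 arrays of 12 h alone (0.208) and those that left replicate 1 (0.247) or 2 (0.115) out of every group. For ppp2r5d the removal of one 12 h array was enough, with an adjusted p of 0.0655 or 0.0985 when that array was TCDD replicate 2 or 3, and of 0.0766 or 0.0925 when it was vehicle replicate 1 or 3.

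The 16 did not all follow their member. Differences above 0.3 were those of cav1 (0.37, SE 0.40) and cdc42ep5 (0.64, SE 0.46), and neither passed (limma adjusted p = 1 and 0.964). TCDD replicate 3 set both: the cav1 probe set had 4.14, 4.21 and 5.68 in TCDD jaws, against 4.43, 4.23 and 4.27 in vehicle jaws, and the cdc42ep5 probe set had 2.54, 2.56 and 4.54 in TCDD jaws, against 2.61, 2.55 and 2.57 in vehicle jaws. Without that array their differences were -0.136 and -0.028, and the cdc42ep5 probe set stood at a mean percentile of 14.7 on the vehicle arrays. The cav1 probe set closest in identifier to the member had -0.26 at 12 h (SE 0.15, limma adjusted p = 0.827). For bhmt the second probe set had -0.47 at 12 h (SE 0.31, limma adjusted p = 0.904) where the member had -1.24, and for tp63 it had -0.18 (SE 0.21, limma adjusted p = 1). At 1 h this cav1 probe set had -0.36, with all TCDD arrays below all vehicle arrays, and that of tp63 had 0.34, with all above. Neither 1 h difference passed (limma adjusted p = 0.367 and 0.624). For brd2a, the other probe set with a mean of at least 4 had -0.17 at 12 h (SE 0.18), with groups that overlapped. Its difference was -0.004 without vehicle replicate 3. The brd2a probe sets with a mean under 4 had -0.007 and 0.000. The 4 further acsl1a probe sets lay between -0.33 and -0.25 at 12 h, and between -0.078 and 0.001 without TCDD replicate 3. Both postnb probe sets share the leading number of their array identifiers with one annotated to gstp1.2, a glutathione transferase gene, which rose at 12 h (difference 0.83, limma adjusted p = 0.00783), so the pairing of these identifiers with genes is not beyond doubt.

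**Figure D4:**
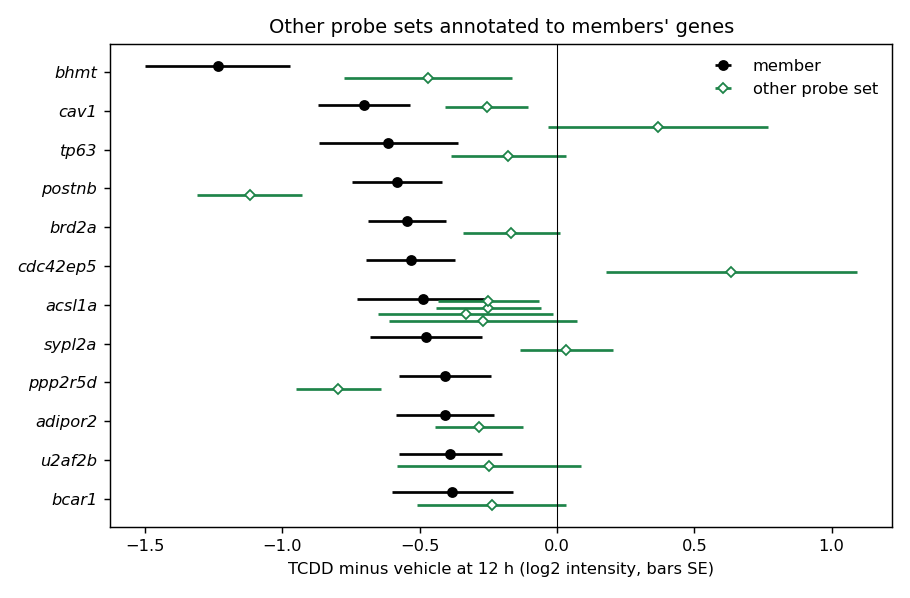
For 12 genes, the 12 h TCDD minus vehicle difference in log2 intensity (horizontal axis, bars are the SE of the limma fit) is drawn for the member (black circle) and for the other probe sets of the gene with a mean of at least 4 (open green diamonds, 16 in all). Of the diamonds, 13 are below 0, and those of postnb and ppp2r5d passed the test.

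Gene lists show what else of the same tissues was lower at 12 h. Of the epidermis and keratin list, 26 of 32 genes were measured by 32 probe sets, 3 of them members (krt15, krt4 and the first tp63 probe set). Of the 32, 6 (18.8%) had all TCDD arrays below all vehicle arrays, 3 of them members by choice, and 2 (6.2%) had them all above. Over all probe sets these shares were 5.27% and 4.84%. With members left out, 25 probe sets of the list had a mean of at least 4, and 3 of these had all TCDD arrays below. The share over all probe sets of that level was 8.69%. Among the 29 that are not members, 1 fell, against 0.368% of all probe sets, and none rose. The median difference of the 29 was -0.04. The call was krt94, a keratin gene, with 4.58, 4.19 and 5.45 in TCDD jaws, against 6.89, 6.44 and 6.76 in vehicle jaws (difference -1.96, SE 0.29, limma adjusted p = 0.00132). It is no member since its difference was -0.48 at 1 h and 0.26 at 2 h, both past the bound of 0.2. Its adjusted p lay between 3.99e-06 and 0.211 over 18 refits, of which 3 ended the call: the 6 arrays of 12 h alone (0.211) and every group without replicate 1 (0.121) or 2 (0.0738). Other skin genes lay on both sides of 0: krt5 had -0.10, krt8 -0.68, cldnb 0.61 and cldnf 0.63, and none of these passed (limma adjusted p between 0.186 and 1). The lower keratins were thus not matched by every epidermal marker. The list's summed intensity at 12 h (log2) was between 15.14 and 15.41 in TCDD jaws and between 15.38 and 15.59 in vehicle jaws. This sum includes the 3 members, which were chosen for lower TCDD values at 12 h, so it is not independent of the choice.

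Cell division genes were mostly outside the members. Of the DNA replication and cell cycle list, 54 of 64 genes were measured by 78 probe sets, and none was a member. At 12 h 2 fell, against 0.368% of all probe sets, and none rose. The median difference was -0.305, and 23 (29.5%) had all TCDD arrays below all vehicle arrays, against 5.27% of all probe sets. Among probe sets with a mean of at least 4, these were 20 of the list's 57, against 8.69% of all of that level. The 2 falls were both probe sets of ccnd1, the cyclin of the G1 phase, at -0.91 (SE 0.20, limma adjusted p = 0.0337) and -0.78 (SE 0.17, limma adjusted p = 0.0351). Each of these calls was ended by 11 of 18 refits, with adjusted p-values from 0.00954 to 0.457 for the first and from 0.00233 to 0.339 for the second. Removing TCDD replicate 2 or 3, or vehicle replicate 1 or 2, at 12 h ended both, and removing TCDD replicate 1 ended the second. Of the 23, 20 had a mean of at least 4 and all 20 had an early difference of 0.2 or more in size, 15 of them a higher TCDD level at 1 h. At 1 h, 29 of the 78 (such as cdk1 with a difference of 0.87) had all TCDD arrays above all vehicle arrays, against 7.6% of all probe sets, and none passed the test. At 4 h 9 fell, against 0.142% of all probe sets. The members grouped here as spindle and kinetochore genes, kifc1 and nuf2, were not on the list.

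Of the skeletal muscle list, 40 of 59 genes were measured by 48 probe sets, none a member. None passed the test at 12 h, while 15 (31.2%) had all TCDD arrays below all vehicle arrays, against 5.27% of all probe sets, and none had them all above, against 4.84%. Among probe sets with a mean of at least 4, those below were 15 of the list's 42, against 8.69% of all of that level. Over the 48 probe sets the median difference was -0.16. Their summed intensity (log2) was between 13.85 and 14.47 in TCDD jaws and between 14.54 and 14.72 in vehicle jaws. These 15 were left out by their early differences, which were at least 0.2 below 0 at 1 h for 12 and at least 0.2 above 0 at 2 h for 12. The part of muscle or of any other cell type in the members' differences was not tested.

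**Figure D5:**
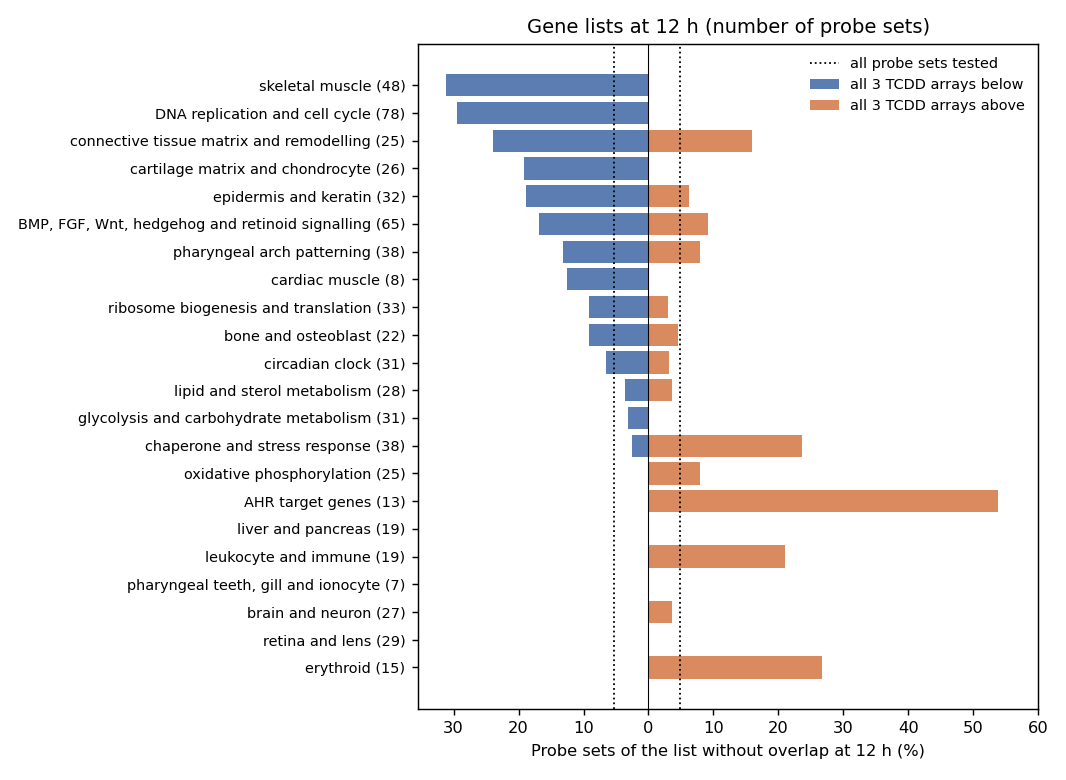
For each gene list (rows, with its number of probe sets), the percentage of probe sets with all 3 TCDD arrays below all 3 vehicle arrays at 12 h is drawn to the left in blue and with all above to the right in orange; dotted lines give the same over all probe sets, 5.27% and 4.84%. Skeletal muscle (31.2%) and DNA replication and cell cycle (29.5%) have the longest bars to the left, and AHR target genes (53.8%) the longest to the right. For all probe sets with a mean of at least 4, which the lists do not hold in equal shares, the share below was 8.69%. Bars of lists that hold members include these members, which lie below by choice.

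The lists that hold other members, and those of further cell types, each gave few calls. Of the connective tissue matrix list, 25 probe sets of 19 genes were measured and 1 was a member (postnb). The second postnb probe set was its single call, and 6 of the 25 probe sets were without overlap below and 4 above, against 5.27% and 4.84% of all probe sets. Of the list of BMP, FGF, Wnt, hedgehog and retinoid signalling, with 65 probe sets of 52 genes, gli2a was the only member. Among the other 64, 1 fell, against 0.368% of all probe sets, and none rose. The fall was that of hhip, which binds hedgehog ligands (difference -0.82, limma adjusted p = 0.032). Of the cartilage list 2 of 26 fell, against 0.368% of all probe sets, and none rose; 5 (19.2%) were without overlap below, and 0 were members. Known AHR targets went the other way, with 5 of 13 probe sets higher and 0 lower, against 0.387% of all probe sets called higher, and for chaperone and stress genes 3 of 38 rose (among them hsp90aa1.2 and gclm). The summed level of the erythroid list (log2) was 11.43, 11.40 and 12.19 in TCDD jaws, against 11.03, 11.31 and 11.05 in vehicle jaws. Its highest value, 12.19, was that of TCDD replicate 3. For the leukocyte list the sums were 8.78, 9.92 and 9.43 in TCDD jaws, against 7.90, 7.96 and 8.13 in vehicle jaws. In the erythroid list 1 of 15 probe sets rose and in the leukocyte list 1 of 19, and none fell in either. The members hold no gene of these last 5 lists, an absence that the rule fixed. All 5 cartilage probe sets without overlap below at 12 h were also at least 0.2 below 0 at 2 h. The 1 such probe set of the chaperone list had an early difference of 0.2 or more in size. In the AHR, erythroid and leukocyte lists 0 were without overlap below, and the rule left out cyp1a and sox9b by name.

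By pattern, the probe sets outside the members most like krt15 over the 24 arrays, each time centred on its own mean, were those of krt94 (Pearson r = 0.868), vim (0.789), gpib (0.771), ahcy (0.764) and rpl15 (0.737). Among the members the highest were adh5 (0.810), zgc:76872 (0.799) and krt4 (0.782). All points share the arrays, and the 12 h difference enters each value, so these are descriptions. The vimentin probe set had a 12 h difference of -1.23 (limma adjusted p = 0.058), and that of ahcy, the enzyme that hydrolyses S-adenosylhomocysteine, had -0.53 (limma adjusted p = 0.151). Neither passed.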

How the data were processed

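RNA of pooled jaws was hybridized to 1-colour Affymetrix zebrafish arrays, 24 in 8 groups of 3, grouped by their titles. The deposited values are linear intensities of 15617 probe sets; RMA and GCRMA are named in the submitters' processing notes, without role, order or version. Column medians were alike within a time and differed between times (13.9 to 15.1 at 12 h, 33.4 to 34.9 at 2 h), so comparisons were made within a time. Here log2 was taken without an offset and 115 control probe sets were left out. All 15502 others were fitted in R 4.3.3 with limma 3.58.1 (8 group means, 16 residual degrees of freedom, eBayes, Benjamini-Hochberg over all probe sets), a fit also checked on simulated arrays. The design text gives 3 independent experiments, and the p-values rest on the spread between these pools. GEO's 2016 platform annotation pairs 10795 probe sets with 1 gene, 135 with several (left unnamed) and 4572 with none; symbols were updated through RefSeq gene IDs. The members and gene lists were chosen with earlier results of these data known. Members named were the first 20 with a gene, those on a gene list, those at the cut and those set apart in the closing section; others were named after their values were seen. Same-numbered TCDD and vehicle arrays at 12 h did not deviate together (residual correlations 0.055, -0.197 and -0.043), so the numbers were not taken as pairs. Alternatives were the replicate number as a block (the random block with statmod 1.5.0), joint quantile normalization, an offset of 16, filters, variance models, array weights, the dap signal as a covariate and leaving out arrays.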

Additional observations from a re-analysis of the deposited data

Results flagged for a closer look

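2 members had all TCDD arrays above all vehicle arrays at an early time and all below at 12 h; the difference between the times was not tested, and the rule kept the early differences under 0.2. For ctbp2a the 1 h values were 7.61, 7.75 and 7.56 in TCDD jaws, against 7.46, 7.52 and 7.48 in vehicle jaws (difference 0.159), and the 12 h difference was -0.473. For adh5 the 4 h values were 9.70, 9.68 and 9.79 in TCDD jaws, against 9.55, 9.59 and 9.53 in vehicle jaws (difference 0.169), and the 12 h difference was -0.447. Over all probe sets, groups without overlap and with TCDD above made up 7.6% at 1 h and 3.61% at 4 h, and among the 80 members there was 1 at each of these times.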

How the results depend on the processing

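The members' median 12 h difference of -0.464 lay between -0.516 and -0.395 when arrays or replicate numbers were left out. It was -0.376 with an offset of 16 and -0.478 after joint quantile normalization. No member's difference changed sign in these refits. For the leave-outs and the offset the rule fixed this outcome, since it had put all TCDD arrays below all vehicle arrays at 12 h. Counts moved more. Probe sets called lower at 12 h (57) were 37 with the random replicate block, 61 with the fixed replicate block, 34 with an offset of 16, 2 with the 6 arrays of 12 h alone (595 at an unadjusted p under 0.05), 376 with array weights, and between 11 and 53 when arrays or replicate numbers were left out. Among single 12 h arrays, leaving out vehicle replicate 1 (30) or 2 (29) or TCDD replicate 3 (32) moved the count by over 1.5 times, as did leaving out replicate 1, 2 or 3 of every group (11, 15 and 11). Members called lower (10) were 10 with the fixed replicate block, 4 with an offset of 16, 0 in the limma fit of the 6 arrays of 12 h alone (68 at an unadjusted p under 0.05), 36 with array weights, and between 1 and 6 in the leave-outs. The membership itself depends on the bounds: of the 80, 12 were found again with an early bound of 0.1, where only 27 probe sets met the rule, 33 with a bound of 0.3, where stronger differences came in ahead of them, and 18 to 27 when a replicate number was left out of every group. With no filter on the mean, a mean of at least 6, joint quantile normalization, an offset of 16 or ranking by the moderated t, 58 to 72 were found again. Of the calls outside the members, those of postnb, ppp2r5d, krt94 and ccnd1 were refitted; the fixed replicate block ended none of them and the random one ended both ccnd1 calls (adjusted p = 0.0674 and 0.0574). Other calls, such as hhip and gstp1.2, were not refitted. The cause of these shifts was not tested.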
